A study of Mus musculus with 2 samples.

Results

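The cytosolic ribosomal protein genes encode the proteins that, with ribosomal RNA, build the 2 subunits of the ribosome. Their members were taken by symbol: every gene whose name is Rpl or Rps followed by a digit, Rplp followed by a digit, or Rpsa. Symbols marked -ps and the kinases named Rps6k were left out. The rule found 85 of the 20451 genes counted, of which 51 carry large-subunit and 33 small-subunit symbols. The remaining match, Rps19bp1, encodes a protein that binds Rps19 and is not itself a subunit. Rpl10l and Rps4l, paralogs of Rpl10 and Rps4x, were not analysed here.

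The cells came from the thymus of 7-week-old mice of 2 genotypes, wild type (B6WT in the sample titles, here WT) and Mgl2DTR_eGFP, here Mgl2DTR. By its name the latter carries a receptor for diphtheria toxin and eGFP tied to Mgl2, a lectin gene of type 2 dendritic cells. Mgl2DTR mice received 500 ng of the toxin, for 48 hours, and the descriptions do not say whether WT mice were given it too. Digested thymus was depleted of CD90.2-bearing cells, stained for CD11c and CD11b and sorted for live cells, and both genotypes were run as 1 droplet pool in which hashtag antibodies mark the origin of each cell. Each genotype is therefore 1 sample with no animal named, so no test was possible: intervals below are exact 95% intervals that cover counting error only, ratios are Mgl2DTR over WT, and a difference between the genotypes cannot be told apart from one between the animals or preparations used.

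Of 28926 cells, 11586 carried the WT hashtag alone and 7433 the Mgl2DTR hashtag alone, with a median of 7820 and 6930 unique molecular identifiers (UMIs, each standing for 1 captured RNA molecule). The 9829 cells with a pair of hashtags and the 78 with none served only to build the clusters and to mark likely doublets. Cells were grouped into 41 clusters without using any ribosomal protein gene, and clusters were gathered into 10 classes by marker genes, so each class name means only that its cells resemble that type. Clusters with too few markers, with none of their own among their leading genes, or with leading or many markers of another type stayed unnamed and held 1483 WT and 1144 Mgl2DTR cells. Mgl2 in type 2 dendritic cells had 506 (WT) and 172 (Mgl2DTR) CPM (UMI counts scaled to a total of 1000000) in cluster 8 and 915 and 272 CPM in cluster 15. That class counted 1143 WT and 275 Mgl2DTR cells. Of the single-hashtag cells, 20.2% in WT and 19.7% in Mgl2DTR were called likely doublets because at least 17 of their 50 nearest neighbours carried a pair of hashtags. Of 4 Y-linked genes measured, Eif2s3y was at least 25% higher in Mgl2DTR in 9 of 10 classes (in T cells 24.3 and 54.9 CPM), Ddx3y was in 8 of 10, and their part in the differences below was not tested.

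Ribosomal proteins are made in equal numbers and their genes are usually transcribed and translated together, with a run of pyrimidines at the start of the messenger RNA through which growth signals control translation. Cells that divide or secrete make many ribosomes, whereas mature neutrophils and resting cells make few. Some members have paralogs or duties outside the ribosome, so single genes can depart from the family.

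The 5′ ends of 7 members are shown because Rpl11 was the steadiest member, Rps27 carries a pyrimidine run at its start, and the others departed from the family in 1 or more cell classes. Each window holds 60 bases before and 25 after the transcription start in RefSeq's GRCm38.p6 annotation. Capitals mark letters of 4 motifs searched on both strands: the ETS-like core CCGGAAG, the TATA box letters TATAAA, the pyrimidine run CTTTCC and the palindrome CTCGCGAGA.
Rpl11: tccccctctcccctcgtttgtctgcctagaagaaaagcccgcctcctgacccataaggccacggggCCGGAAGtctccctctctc
Rps27: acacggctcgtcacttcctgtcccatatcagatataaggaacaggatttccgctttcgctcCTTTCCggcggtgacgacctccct
Rps27l: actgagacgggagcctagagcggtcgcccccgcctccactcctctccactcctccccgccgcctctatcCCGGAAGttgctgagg
Rpl31: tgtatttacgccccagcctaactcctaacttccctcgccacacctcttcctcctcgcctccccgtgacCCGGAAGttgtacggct
Rps19: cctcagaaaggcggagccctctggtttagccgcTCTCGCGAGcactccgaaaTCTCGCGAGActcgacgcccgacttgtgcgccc
Rpl36al: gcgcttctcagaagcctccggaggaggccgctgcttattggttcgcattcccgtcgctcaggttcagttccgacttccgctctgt
Rpl22l1: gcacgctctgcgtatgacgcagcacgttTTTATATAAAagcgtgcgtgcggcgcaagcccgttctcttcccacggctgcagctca
The windows lie at chr4:136053369-136053453 for Rpl11 (minus strand), chr3:90213624-90213708 for Rps27 (minus), chr9:66946026-66946110 for Rps27l (plus), chr1:39367791-39367875 for Rpl31 (plus), chr7:24884532-24884616 for Rps19 (plus), chr12:69184043-69184127 for Rpl36al (minus) and chr3:28805448-28805532 for Rpl22l1 (plus). In Rps27 the C at the transcription start is followed at once by CTTTCC. Rpl11, Rps27l and Rpl31 each hold CCGGAAG just after the start, although Rpl11 kept its place in the family and the others departed from it in different cells. Rpl36al holds none of the motifs in this window. Rpl22l1 holds overlapping copies of TATAAA and its reverse complement, and Rps19 holds CTCGCGAGA and its reverse complement in overlapping and separate copies.

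Promoter windows of 300 bases were at hand for 65 members. CCGGAAG lay in the window of 26 of them (40.0%), against 9.86% of the 26960 other genes with windows of this length. CTCGCGAGA lay in 7 (10.8%) against 0.738%, CTTTCC in 35 (53.8%) against 29.3%, and TATAAA in 7 (10.8%) against 15.7% of the other genes. A match describes the letters only.

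The family made up 23.7% of all UMIs in WT and 23.2% in Mgl2DTR cells, a large share for 85 genes. The share was highest in B cells (30.7% in WT, 31.6% in Mgl2DTR) and T cells (27.4% and 29.1%). NK or innate lymphoid cells, with 25.2% (25.1 to 25.2) and 25.9%, had the widest counting interval of the WT classes. Type 1 dendritic cells (cDC1, which cross-present antigen) followed at 24.9% and 24.5%, type 2 dendritic cells (cDC2) at 24.1% and 24.8%, plasmacytoid dendritic cells (pDC, the interferon producers) at 23.4% in both, and monocytes at 23.3% and 22.9%. Lower shares were found in activated dendritic cells, which express Ccr7 and Fscn1 (20.4% and 18.9%), in macrophages (18.7% and 20.5%) and in neutrophils (12.99% and 15.6%). In WT all neighbours in this order were separated by more than their counting error, and neutrophils were lowest in both genotypes. Macrophages lay below activated dendritic cells in WT and above them in Mgl2DTR.

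Shares within a class were wide, and clusters differed more than genotypes. Among WT neutrophils the Ltf- and Retnlg-expressing cluster 27 held 4.01% and the Cxcl2-expressing cluster 9 held 6.80%, whereas cluster 19, led by the granule genes Elane, Prtn3 and Mpo of immature neutrophils, held 14.5%. Cluster 22, with 97.9% of its WT cells called doublets, held 20.7%. Clusters 19 and 22 supplied 330188 and 149753 of the 528109 family UMIs of WT neutrophils. Class shares are of summed UMIs, in which deep cells weigh more, and the median neutrophil held 5.62% in WT and 6.57% in Mgl2DTR. In T cells cluster 1, with Lef1 and S1pr1, held 30.4% in WT, and cluster 25, with the recombination gene Rag1, held 18.8%. Within cDC1, cluster 2, led by the nuclear or ribosomal RNA transcripts Gm42418 and Gm26917, held 16.1% against 26.4% in cluster 0. Cluster 2 was shallow, with a median of 2736 UMIs against 14160 in cluster 0, and 84.9% of its WT cells had neighbours that mark likely doublets. All cells of NK or innate lymphoid cluster 31 and of plasmacytoid cluster 12 were called doublets (100%). Cluster 31 held 561545 of the 1170985 WT UMIs of its class and 322905 of 629353 in Mgl2DTR. Cluster 12 held 3744929 of 9449449 and 2289643 of 7603728. In WT the family share was 25.8% in cluster 31 against 24.5% in cluster 28 of that class, and 24.2% in cluster 12 against 23.3% in plasmacytoid cluster 3. When the cells of a class were split by depth into 3 parts, the deepest part had a higher share than the shallowest in each class and genotype except WT B cells and WT cDC2. In WT activated dendritic cells these shares were 14.5% in the shallowest and 21.2% in the deepest part. Across 28 clusters with at least 100 WT cells, which share 1 library, the share had a Pearson r of 0.305 with median UMIs, -0.301 with median mitochondrial percent and -0.344 with the median percent of Malat1, Gm42418 and Gm26917; the part of depth and RNA quality in these differences was not tested.

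**Figure D1:**
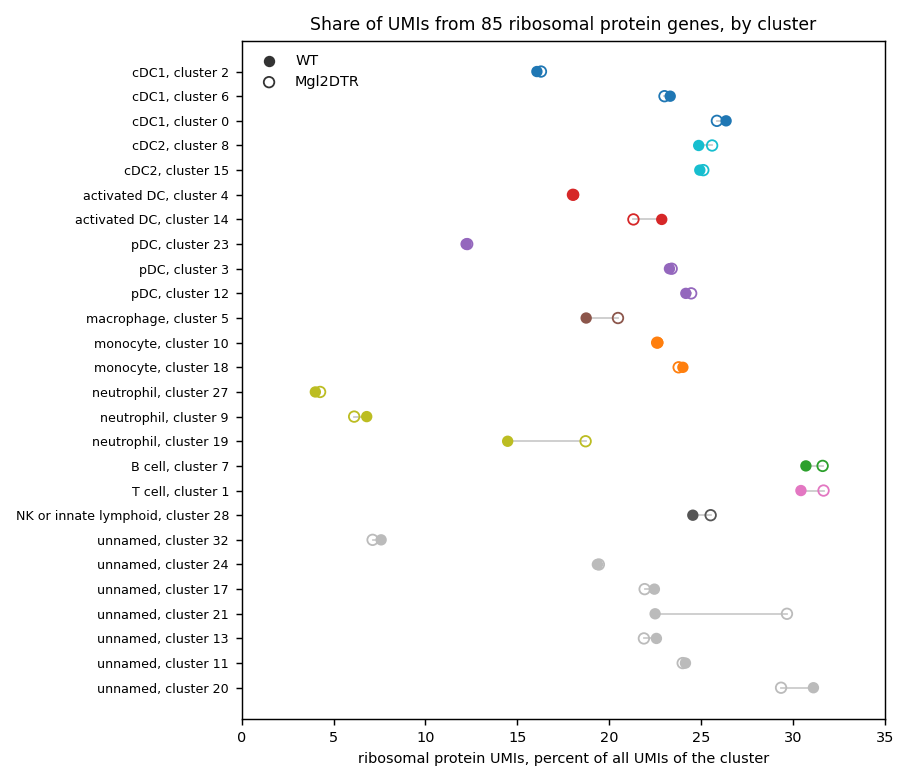
Share of all UMIs that came from the 85 ribosomal protein genes (x axis, percent) in each cluster with at least 50 cells of both genotypes (y axis), coloured by class, for WT (filled points) and Mgl2DTR (open points). Neutrophil clusters 27 and 9 lie below 7%, B and T cell clusters at 30.4% or more, and the largest gaps between genotypes are in neutrophil cluster 19 and unnamed cluster 21.

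Within the family the balance between members was far steadier than the total. Small-subunit genes supplied from 44.6% (macrophages) to 46.3% (T cells) of subunit UMIs over the WT classes. Among the members with most UMIs were Rps29 (2.84% of family UMIs in WT, 2.77% in Mgl2DTR), Rps24 (2.61% and 2.44%), Rpl41 (2.60% and 2.78%) and Rps28 (2.19% and 2.22%). For the 83 members with at least 50 UMIs in every WT class, the highest class exceeded the lowest by a median of 1.33-fold in percent of the family. The highest class was less than 25% above the lowest for 26 members, and the range was over 2-fold for 6. The steadiest were Rpl11, which binds the p53 inhibitor Mdm2 (1.098-fold), Rps13 and Rpl37 (both 1.13-fold), Rps10 (1.15-fold) and Rpl29 (1.16-fold). Rpl11 ran from 1.16% of the family in macrophages to 1.27% in B cells.

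The class that stood apart most often was that of activated dendritic cells, which was the lowest class for 33 of the 83 members and the highest for 18. In Mgl2DTR cells the counts were 36 and 19. Of the 83 members, 58 had the same highest class in both genotypes. Activated dendritic cells also had the highest median percent of Malat1, Gm42418 and Gm26917 of the 10 classes, 8.41% in WT and 10.5% in Mgl2DTR; its part in these departures was not tested.

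**Figure D2:**
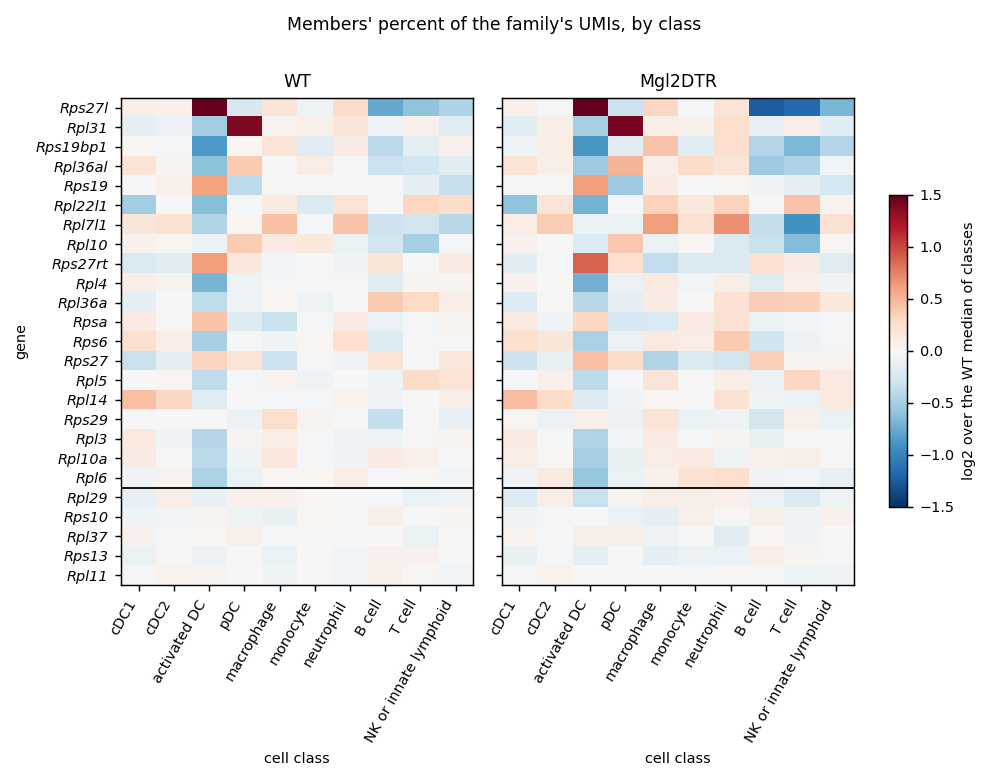
Percent of the family's UMIs in each class (columns) for 20 of the members with the largest and, below the line, 5 of those with the smallest range over WT classes (rows), as log2 over the member's median across WT classes (colours stop at 1.5 either way), in WT (left) and Mgl2DTR (right). Rps27l stands out in activated dendritic cells and Rpl31 in plasmacytoid dendritic cells in both panels.

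Rps27l, a paralog of Rps27 known as a target gene of p53, had the widest range over classes among the members with enough UMIs to measure one, 5.64-fold in WT and 9.77-fold in Mgl2DTR. It made up 0.739% (0.727 to 0.752) of family UMIs in WT activated dendritic cells and 0.916% (0.895 to 0.937) in Mgl2DTR. In the other 9 WT classes it ran from 0.131% in B cells to 0.268% in neutrophils, and in Mgl2DTR from 0.0937% in B cells to 0.276% in macrophages, so activated dendritic cells did not overlap with any other class. The excess over the median of the other classes was 3.51-fold in WT and 4.20-fold in Mgl2DTR. Among all UMIs, Rps27l had 1508 CPM in these cells of WT and 1728 CPM in those of Mgl2DTR.

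Both clusters of the class shared the excess, but not equally. Cluster 4, with Il12b and Ccl5, had 1.08% of family UMIs as Rps27l in WT and 1.06% in Mgl2DTR, the highest of the 26 clusters with at least 50 cells of both genotypes. Cluster 14, with Ccl17 and Ccl22, had 0.459% and 0.561%. Unnamed cluster 13, also led by Ccl22 and Fscn1, had 0.531% and 0.742%, and unnamed clusters 17 and 11 had 0.436% and 0.369% in WT. Among these 26 clusters, those of the other named classes were at 0.300% or below in WT. Of the WT cells of clusters 13, 17 and 11, 26.9%, 98.5% and 70.6% were called doublets. The gene lies at chr9:66946086-66949516 on the plus strand (GRCm38), no annotated exon of another gene overlaps its exons, and none of the 60-base words in the last 300 bases of its longest transcript occurs in another gene's transcript, Rps27 included.

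Rps19, a small-subunit protein mutated in Diamond-Blackfan anaemia, was also high in activated dendritic cells, with 1.601% (1.58 to 1.62) of the family in WT and 1.62% (1.59 to 1.64) in Mgl2DTR. The other WT classes held 0.799% (pDC) to 1.11% (cDC2). Clusters 4 and 14 agreed closely, at 1.57% and 1.63% in WT, although the low-depth cDC1 cluster 2 also reached 1.44% and unnamed cluster 32, led by mitochondrial transcripts, reached 1.61%. Among the classes, Rps27rt, a retrotransposed copy of Rps27, and Rps27 itself were also highest in activated dendritic cells. They stood at 0.0368% and 1.62% in WT, against at most 0.0270% and 1.49% in the other classes. Single clusters of other classes went higher. In WT neutrophil cluster 9, Rps27 held 471 of 13998 family UMIs, against 14392 of 822584 in cluster 4. Rps27rt held 104 of 232704 in WT cluster 2, against 335 of 822584 in cluster 4. Of the 60-base words in the last 300 bases of Rps27rt, 88.0% occur in other genes, Rps27 among them, so these genes cannot be told apart with certainty.

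Rpl4, a core large-subunit protein, was low in activated dendritic cells, at 0.139% of the family in WT and 0.1364% in Mgl2DTR. The other classes held at least 0.201% in WT and at least 0.1995% in Mgl2DTR, so they did not overlap with it. Rps6, the substrate of the S6 kinases, stood at 0.325% in WT against at least 0.401% elsewhere, but all 60-base words of its end occur in other genes too. Rpl4, Rps19 and Rpl31 share no such word with another gene.

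Rpl31, a large-subunit protein near the exit tunnel, marked plasmacytoid dendritic cells. It made up 1.17% (1.15 to 1.18) of the family in WT and 1.19% (1.173 to 1.205) in Mgl2DTR plasmacytoid dendritic cells. The other classes ran from 0.309% (activated dendritic cells) to 0.504% (neutrophils) in WT and from 0.315% to 0.535% in Mgl2DTR, so no other class came near. The excess over the median of the other classes was 2.73-fold in WT and 2.57-fold in Mgl2DTR. By cluster, Rpl31 held 1.51% in cluster 3 and 1.84% in the shallow cluster 23 of WT, and 0.668% in cluster 12, where all WT cells were called doublets (100%). Unnamed clusters 21 and 17 also held 0.912% and 0.740% in WT. Without cells called doublets the WT excess was 3.71-fold. The gene lies at chr1:39367842-39371911 on the plus strand, and its exons overlap, on the other strand, those of Tbc1d8.

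Rpl10 and Rpl36al were also highest in plasmacytoid dendritic cells, by less. Rpl10, an X-linked large-subunit protein that joins late in assembly, made up 1.03% of the family there in WT and 1.05% in Mgl2DTR, and was lowest in T cells (0.559% and 0.504%). Of the end of Rpl10, 43.15% is shared with other genes. Rpl36al stood at 0.744% and 0.807% in plasmacytoid dendritic cells and was lowest in activated dendritic cells (0.371% and 0.387%). Its exons overlap Gm49383 on the same strand, and 67.6% of its end is shared with other genes, so its level is uncertain.

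**Figure D3:**
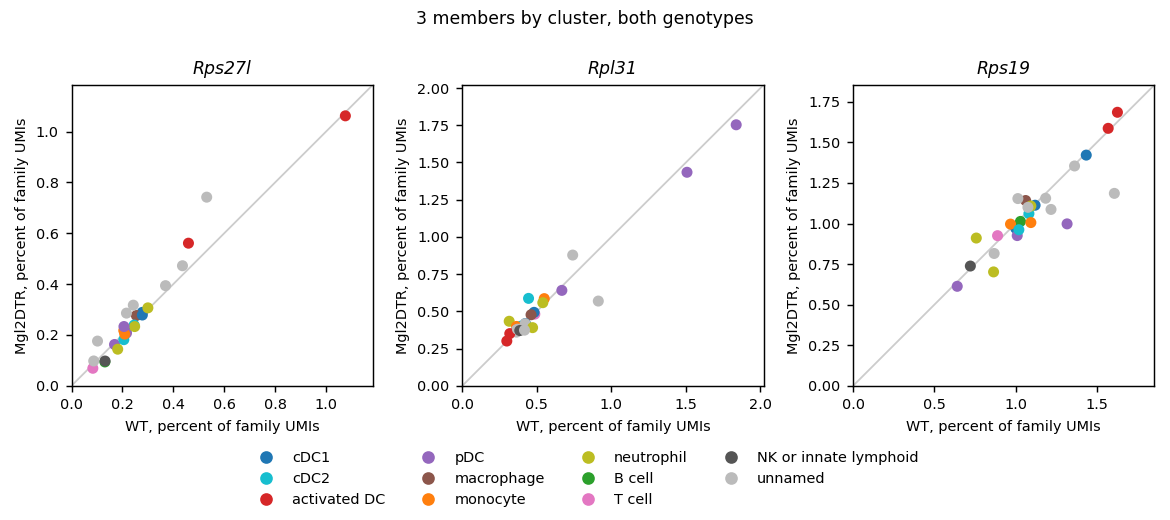
Percent of family UMIs of Rps27l, Rpl31 and Rps19 in each cluster with at least 50 cells of both genotypes, WT on the x axis and Mgl2DTR on the y axis, coloured by class, with the line of equal values. Rps27l is highest in activated dendritic cell cluster 4 and Rpl31 in the plasmacytoid clusters 23 and 3 in both genotypes, and Rps19 is highest in activated dendritic cell cluster 14.

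The paralog pairs had class-specific balances. Rpl22l1, the paralog of Rpl22, a protein that developing alpha beta T cells need, supplied 11.9% of the pair's UMIs in WT activated dendritic cells and 12.5% in cDC1, against 16.1% to 21.6% in the other classes. In Mgl2DTR these values were 10.9%, 11.8% and 16.9% to 23.1%, so the same 2 classes were lowest. Rpl22 alone varied by 1.249-fold as percent of the family in WT, whereas Rpl22l1 varied by 1.94-fold.

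Rps27l supplied 31.3% of the Rps27l and Rps27 pair in WT activated dendritic cells but 8.15% in B cells, and 34.2% and 5.38% in Mgl2DTR. Rpl36al supplied 41.4% of its pair with Rpl36a in WT B cells and 61.6% in plasmacytoid dendritic cells. All of the end of Rpl36a is shared with other genes, so that balance is uncertain. Rpl7l1, a nucleolar paralog of Rpl7, supplied from 2.71% of its pair in NK or innate lymphoid cells to 4.62% in neutrophils of WT. Rpl39l, best known from testis, had only 90 UMIs in all WT and 43 in all Mgl2DTR cells, and its partner Rpl39 held 1.78% to 2.52% of family UMIs over the WT classes. Rpl3l, the paralog of Rpl3 in heart and skeletal muscle, had 149 and 228 UMIs. Rps4x, an X-linked small-subunit protein, ran from 0.881% in activated dendritic cells to 1.24% in cDC2 of WT.

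Between genotypes the family moved little in most classes. The ratio of its share was 0.984 (0.983 to 0.986) in cDC1, 1.025 (1.023 to 1.028) in cDC2, 0.998 (0.996 to 1.00) in plasmacytoid dendritic cells and 0.987 (0.984 to 0.990) in monocytes. It was 1.03 in both B cells (1.027 to 1.033) and NK or innate lymphoid cells (1.022 to 1.034), 1.06 (1.06 to 1.07) in T cells, 1.09 (1.089 to 1.096) in macrophages, 0.925 (0.923 to 0.928) in activated dendritic cells and 1.20 (1.20 to 1.21) in neutrophils. None reached the 25% rise, or the ratio of 0.8, by which a gene was called. At such depth the counting intervals are narrow, and the spread between animals, which is not known, is not in them.

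A gene was called higher or lower in a class where its level was at least 25% higher or its ratio was 0.8 or less, with the whole interval beyond 1 and at least 50 UMIs. In cDC1, cDC2 and plasmacytoid dendritic cells 0 of 83 measured members were called, where 7.07%, 12.9% and 9.32% of all genes measured were. In activated dendritic cells 1 of 83 was called against 15.4% of all genes, in B cells 1 of 83 against 15.9%, in NK or innate lymphoid cells 1 of 83 against 9.01%, in T cells 3 of 83 against 15.7%, in monocytes 2 of 84 against 25.5% and in macrophages 5 of 83 against 17.2%. All of these shares of members were below those of all genes. The exception was neutrophils, where 30 of 84 members (35.7%) were called against 24.7% of all genes. The shares of all genes take in every gene with at least 50 UMIs, whereas most members are far more abundant. Counting error passes the rule more easily at low counts, and the shares were not matched for abundance.

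**Figure D4:**
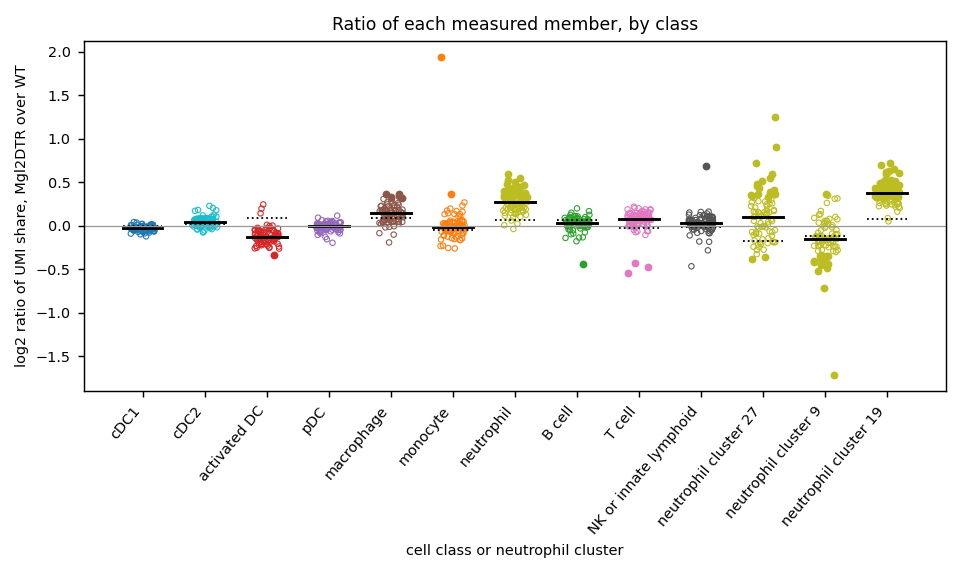
Log2 ratio of UMI share, Mgl2DTR over WT, for each measured member (points, filled where called) in the 10 classes and 3 neutrophil clusters, with the median of members (solid bar) and of all other genes (dotted bar). Members lie close together in cDC1, cDC2 and plasmacytoid dendritic cells, are shifted up in neutrophil cluster 19 and down in cluster 9, and Rpl3l is the highest point in monocytes.

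In neutrophils all 30 called members were higher in Mgl2DTR, against 15.2% of all genes called higher. The median log2 ratio of members was 0.27, that of the other genes 0.07. Rps2, a small-subunit protein, was farthest above the family, with 1496 CPM (WT) and 2266 CPM (Mgl2DTR), a ratio of 1.51 (1.47 to 1.56). Of the end of Rps2, 73.0% is shared with other genes, so its level is uncertain. Rpl3l (0.974, 0.648 to 1.49) and Rps24 (1.003, 0.983 to 1.02) lay farthest below the family. When each cell was given equal weight the neutrophil family ratio was 1.055 and 0 members were called, and without cells called doublets it was 1.41 with 78 called. How many of all genes would be called in these 2 settings was not counted, so 0 and 78 have no background share.

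The 3 neutrophil clusters with at least 50 cells of both genotypes did not move together. In cluster 19, the Elane and Mpo cluster, the family share was 14.5% in WT (108 cells) and 18.7% in Mgl2DTR (192 cells), a ratio of 1.29 (1.29 to 1.30). There 56 of 83 members were called, all higher, where 26.8% of all genes were called and 16.5% called higher. The ratio was 1.32 both without cells called doublets and, over all cells, as the mean of the cells' shares. In cluster 9 (116 and 646 cells) the share was 6.80% and 6.12%, a ratio of 0.8998 (0.884 to 0.916), with 1 member higher and 15 lower of 82 against 20.5% of all genes. In cluster 27 (162 and 105 cells) it was 4.01% and 4.27%, a ratio of 1.06 (1.05 to 1.08), with 16 higher and 2 lower of 80 against 24.1%. The shares of members called either way in clusters 9 and 27 (19.51% and 22.5%) were thus near those of all genes, and that in cluster 19 (67.5%) was not. Directions differed in cluster 27, where 161 of 2664 genes were called higher and 482 lower. The median log2 ratio there was 0.104 for members and -0.180 for the other genes. In cluster 9, 208 of 2858 genes were called higher and 378 lower, and these medians were -0.154 and -0.122.

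Other genes moved with the rise in cluster 19. Among granule genes, Camp (31764 and 15560 CPM in WT and Mgl2DTR), Ngp (20055 and 13927 CPM) and Ltf (3820 and 2490 CPM) were lower in Mgl2DTR. Elane (5126 and 5722 CPM), Prtn3 (3883 and 6189 CPM) and Mpo (1556 and 2165 CPM) were higher. The 10 neutrophil markers summed to 277643 CPM (WT) and 217385 CPM (Mgl2DTR) with none at 0, and the 8 cycling markers to 2292 and 2425 CPM. Median depth was 18213.5 UMIs in WT and 27668 UMIs in Mgl2DTR, and 36.1% of WT and 18.8% of Mgl2DTR cells were called doublets. The part of these in the rise was not tested. Unnamed cluster 21, which expresses Cdk6 and Stmn1, showed a like gap, 22.5% in WT (75 cells) and 29.7% in Mgl2DTR (255 cells), but plasmacytoid markers summed there to 11638 CPM (WT) and 1959 CPM (Mgl2DTR).

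In macrophages the 5 called members were all higher, against 12.6% of all genes called higher. Among them Rpl22l1 stood at 410 CPM (WT) and 521 CPM (Mgl2DTR; ratio 1.27, 1.19 to 1.35), Rps26 at 2974 and 3721 CPM (1.251, 1.22 to 1.28), Rps6 at 826 and 1041 CPM (1.26, 1.21 to 1.32) and Rps19bp1 at 50.04 and 64.4 CPM (1.29, 1.07 to 1.54). The median member was at 1.103. Rps27rt and Rpl10 lay farthest below the family, at 0.875 (0.696 to 1.09) and 0.931 (0.899 to 0.964). Measured against the median ratio of the other genes in place of the total, or at the coarser cluster resolution, 0 members were called in macrophages. At the coarser resolution these 4 ratios ran from 1.179 (Rps19bp1) to 1.229 (Rps6), still above 1 but short of a call. Macrophage markers summed to 24136 CPM (WT) and 19705 CPM (Mgl2DTR), with none of 10 at 0. Monocyte markers summed to 7982 and 6629 CPM, neutrophil markers to 2257 and 1301 CPM and cycling markers to 768 and 1065 CPM, also with none at 0. Median depth was 10528 UMIs in WT and 7058 UMIs in Mgl2DTR, and 26.95% and 35.1% of these cells were called doublets. The part of these in the result was not tested.

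In monocytes Rpl3l had 17 UMIs in WT (4.41 CPM) and 102 UMIs in Mgl2DTR (16.96 CPM), a ratio of 3.85 (2.29 to 6.87) and the largest of any member and class. Its level was not steady within the myeloid clusters, since in neutrophil cluster 9 it had 22 UMIs in WT (107 CPM) and 38 UMIs in Mgl2DTR (32.4 CPM). Within monocyte cluster 10 the ratio was 1.56 (0.827 to 3.16) and the gene was not called. Monocyte cluster 35, with 27 WT and 82 Mgl2DTR cells, held 0 of the 17 WT and 44 of the 102 Mgl2DTR UMIs, and with the WT mix of clusters the class ratio was 3.10. It was 2.31 with the coarser clusters, and 2.02 with each cell given equal weight. Rpl22l1 was the other called member, at 401 and 515 CPM (1.28, 1.21 to 1.37). Rps27, at 0.837 (0.817 to 0.857), was among the members farthest below the family in monocytes. Monocyte cluster 18, with 98.04% (WT) and 97.01% (Mgl2DTR) of cells called doublets, weighed unequally in the genotypes. It held 1993585 of the 3858143 WT UMIs of the class and 1313253 of 6012417 in Mgl2DTR. In cluster 10, with 11.32% and 8.247% of cells called doublets, Rpl22l1 was also called higher. The part of doublets in the monocyte class ratios was not tested.

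In T cells Rps27l, Rps19bp1 and Rpl7l1 were called lower, where 7.77% of all genes were called lower. Rps27l had 402 CPM (WT) and 289 CPM (Mgl2DTR; ratio 0.718, 0.662 to 0.779). This class held different clusters in the genotypes: the Rag1 and Dntt clusters 25 and 37 counted 389 and 113 cells in WT but 18 and 2 in Mgl2DTR. Cluster 16, with 84.2% (WT) and 100% (Mgl2DTR) of cells called doublets, held 2403 of 4753 and 245 of 668 Rps27l UMIs. As percent of family UMIs, Rps27l was lower in Mgl2DTR in cluster 1 (0.0837% and 0.0687%), cluster 16 (0.206% and 0.169%) and cluster 36 (0.124% and 0.117%). It was higher in cluster 25 (0.166% and 0.171%) and cluster 37 (0.238% and 0.555%), on 11 and 10 Mgl2DTR UMIs. With the WT mix of clusters in both genotypes the Rps27l ratio was 1.04, a value that leans on the 2 Mgl2DTR cells of cluster 37. Rps19bp1 stood at 57.8 and 42.8 CPM (0.740, 0.593 to 0.915) and Rpl7l1 at 52.4 and 35.9 CPM (0.684, 0.538 to 0.862). In B cells Rps27l was likewise called lower, at 402 and 296 CPM (0.736, 0.668 to 0.809). Of the B cells 35.8% in WT and 27.8% in Mgl2DTR were called doublets, and without cells called doublets the Rps27l ratio was 0.810, just short of the ratio of 0.8 that a call needs, and 0 members were called. In NK or innate lymphoid cells Rpl7l1 was called higher on 51 and 44 UMIs (1.61, 1.05 to 2.45). Of these cells 17.8% in WT and 17.3% in Mgl2DTR were called doublets, among them all of cluster 31.

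In activated dendritic cells the family was lower in Mgl2DTR while the median of the other genes was higher (median log2 ratios of -0.128 and 0.085). Rpl29 was the called member, at 1105 and 875 CPM (0.792, 0.762 to 0.823), and all of its end is shared with other genes. Rpl21 (0.833, 0.813 to 0.853) and Rplp0 (0.835, 0.812 to 0.858) followed. Rps27l and Rpl7l1 departed upward from the family by 25% or more, Rps27l with a ratio of 1.15 (1.11 to 1.18) and Rpl7l1 with 1.185 (0.977 to 1.43). By cluster the family ratio was 0.998 (0.994 to 1.00) in cluster 4 and 0.9325 (0.928 to 0.937) in cluster 14. The mix of the 2 clusters differed, with 730 and 517 cells in WT and 572 and 150 in Mgl2DTR, and with the WT mix the family's class ratio was 0.962. Rps27l had a ratio of 0.984 (0.952 to 1.02) in cluster 4 and 1.14 (1.07 to 1.21) in cluster 14, and with the WT mix it was at 1.04, so its departure from the family fell short of 25%. Rpl7l1 was at 1.53 (1.18 to 1.98) in cluster 4 and 1.005 (0.714 to 1.39) in cluster 14, and at 1.21 with the WT mix. Rpl29 was at 0.878 with the WT mix and would not be called.

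Members were ranked by the median of their log2 departure across the classes. Among those measured in 10 classes, the farthest above the family in Mgl2DTR were Rpl7l1 (0.151), Rpl41 (0.076), Rpl36al (0.072), Rpl22l1 (0.071) and Rps26 (0.067). Rpl7l1 was above it in 6 of 10 classes and ran from -0.624 to 0.656, and Rpl36al and Rpl22l1 were above it in 7. Rpl3l had a median of 0.825 over only 2 measured classes, 1.962 in monocytes and -0.312 in neutrophils. Rpl41, the smallest ribosomal protein, and Rps26 were above the family in 9 of 10 classes. Among those farthest below were Rplp0, of the ribosome's stalk (-0.099), Rps27l (-0.083), Rpl10 (-0.075), Rpl24 (-0.063) and Rps3 (-0.049). Rplp0, Rps27l and Rpl10 were below it in 7 of 10 classes, and Rpl24 and Rps3 in 9. Of the end of Rpl24, 80.5% is shared with other genes.

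Genes around the ribosome were read from lists. Of 42 ribosome biogenesis genes, 20 of 41 measured were called higher and 0 lower in macrophages, with a median log2 ratio of 0.363 against 0.085 for all genes outside the family, and 19 higher and 1 lower of 42 in neutrophils (0.4 against 0.066). The called-higher shares of the list, 48.8% in macrophages and 45.2% in neutrophils, stand beside 12.6% and 15.2% of all genes. The neutrophil clusters again differed: the list summed to 0.221% (WT) and 0.355% (Mgl2DTR) of all UMIs in cluster 19, to 0.106% and 0.0905% in cluster 9, and to 0.0461% and 0.0333% in cluster 27. Nop56, which guides the methylation of ribosomal RNA, had 57.8 CPM (WT) and 109 CPM (Mgl2DTR) in macrophages (1.88, 1.61 to 2.18), and Rrp12 was at 5.56 and 10.5 CPM (1.89, 1.14 to 3.11). Znhit3 in neutrophils was at 12.8 and 23.8 CPM (1.86, 1.37 to 2.57). The lower calls with the smallest ratios were Wdr12 in activated dendritic cells (0.509, 0.247 to 0.969), Utp15 in monocytes (0.622, 0.434 to 0.891) and Polr1a, the large subunit of RNA polymerase I, in neutrophils (0.721, 0.551 to 0.948). In the other classes at most 3 genes of the list were called higher.

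Another list held 31 translation factors and other genes taken as having pyrimidine starts, although their starts were not checked. Of these genes 6 were called higher in macrophages and 10 in neutrophils, and 0 lower in either. These are 19.4% and 32.3% of the list, against 12.6% and 15.2% of all genes called higher, and the list's median log2 ratios were 0.11 and 0.22. Eef1g (1.47, 1.35 to 1.62) and Eif4e, the cap-binding factor (1.504, 1.247 to 1.823), were the highest in neutrophils and Eif3a (1.47, 1.36 to 1.58) in macrophages. The smallest ratios among calls were those of Vim in plasmacytoid dendritic cells, at 499 and 325 CPM (0.652, 0.621 to 0.685), Eif2s3x in NK or innate lymphoid cells (0.511, 0.261 to 0.937) and Hnrnpa1 in monocytes (0.742, 0.676 to 0.814). Of the 78 mitochondrial ribosomal protein genes 47 were called higher and 0 lower in neutrophils, 12 and 0 in macrophages, and 1 and 7 in T cells. The share called higher was 60.3% in neutrophils against 15.2% of all genes, whereas the 15.4% called higher in macrophages and the 8.97% called lower in T cells were near the 12.6% and 7.77% of all genes. In neutrophil cluster 19 the mitochondrial ribosomal protein genes summed to 0.470% (WT) and 0.630% (Mgl2DTR) of all UMIs, against 0.332% and 0.341% in cluster 9 and 0.194% and 0.187% in cluster 27. Of the 13 genes encoded by the mitochondrial genome itself, 5 were called higher in B cells and 5 in T cells (10.8% and 7.92% of all genes), and 0 in the other 8 classes.

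Among 30 growth regulators calls went both ways. In macrophages 2 of 26 measured were called higher and 0 lower, and in neutrophils 2 of 28 higher and 4 lower. The called-higher shares, 7.69% and 7.14%, were below the 12.6% and 15.2% of all genes. Of all 8969 genes measured in neutrophils, 851 were called lower. Myc was called higher in both classes (11.4 and 16.8 CPM in macrophages, 7.38 and 11.4 CPM in neutrophils). The largest ratios were those of Ddit4 in monocytes (2.07, 1.33 to 3.31), Mnt in B cells (2.02, 1.21 to 3.44) and Mxi1 in monocytes (1.87, 1.43 to 2.48), and the smallest those of Mycl in monocytes (0.386, 0.272 to 0.544), Rps6kb1 in NK or innate lymphoid cells (0.487, 0.267 to 0.840) and Rps6ka5 in monocytes (0.504, 0.348 to 0.728). Fau, a ribosomal protein made as a fusion, and Rack1, which binds the small subunit, escape the symbol rule and were called in 0 of 10 classes.

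The family's level was compared with that of every other gene over the 28 clusters with at least 100 WT cells. By Pearson r of log2(CPM + 1), over clusters that share 1 library and with no test, the closest genes outside the family were Gm10076 (0.974), Eef1d (0.969), Eef1a1 (0.964), Naca (0.964), Eif3h (0.962), Eif3m (0.954), Npm1 (0.953) and Phb2 (0.953). Gm10076 holds 57.3% of the end of Rpl41, so its reads cannot be told apart from those of Rpl41 with certainty. Of 83 members, 73 had an r above 0.9 with the family total, of which each is a part, and the median was 0.9695 against 0.282 for the other genes among the 6636 compared. The least alike members were Rpl7l1 (0.522), Rps27rt (0.624), Rps27l (0.635) and Rps19bp1 (0.682).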

How the data were processed

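Single-cell RNA-seq of sorted thymus cells was read from 2 tables of raw counts that the authors deposited, with whole UMI counts per gene and cell. Per the submitters' processing notes the tools were Cell Ranger 6.0.0 and Seurat 4.0.4 and the build mm10; further settings are not given in the sources used here. Genotypes were taken from the deposited hashtag calls. The 41 clusters were built with python 3.11.15, scipy 1.17.1 and leidenalg 0.10.2 from 2000 variable genes without the members, 30 principal components and 20 neighbours at resolution 1, and named from marker lists. Counts were summed per class and genotype; ratios carry exact conditional and shares exact binomial (Clopper-Pearson) 95% intervals. Only classes with at least 100 cells per genotype and genes with at least 50 UMIs were compared. The calls were tested on counts simulated for macrophages and T cells with counting error only. The simulation held no spread between cells, animals or preparations, so it cannot speak to that spread.

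The members and all lists were chosen with earlier results of these data known. Genes were named by rule: paralog pairs, the 10 widest and 5 narrowest ranges over classes, the 6 farthest departures each way overall and 3 per class, the 5 most abundant, the 3 largest called ratios each way per related list, and the 8 genes most like the family; some genes the rule names are not reported here, but all members are in the sums and counts. Rpl4, Rps6, Myc, Camp, Ngp, Ltf, Elane, Prtn3 and Mpo were singled out after their values were seen. RefSeq promoter windows (GRCm38.p6) and GENCODE gene models (GRCm38) were matched by symbol. How droplets with free RNA add to low counts was not tested.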

Additional observations from a re-analysis of the deposited data

Results flagged for a closer look

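A pair of members were called in opposite directions in different classes, and the difference between the classes was not tested. Rpl7l1 had a ratio of Mgl2DTR over WT of 1.436 in neutrophils and 1.605 in NK or innate lymphoid cells but 0.6843 in T cells. With each cell at equal weight the neutrophil ratio turned to 0.8997, the NK or innate lymphoid call was lost at a minimum of 200 UMIs, and with the WT mix of clusters the T cell ratio was 0.8806. Rps19bp1 had a ratio of 1.288 in macrophages and 1.315 in neutrophils but 0.7398 in T cells, and its neutrophil ratio turned to 0.9265 with each cell at equal weight. UMIs were also assigned to the 4 rows with -ps symbols that the family leaves out. Over both genotypes these were 6399 for Rpl10-ps3, 5914 for Rpl9-ps6, 2353 for Rpl36a-ps1 and 6 for Rpl9-ps1.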

How the results depend on the processing

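No paired analysis was possible because each genotype is 1 sample without replicate numbers. Of the alternatives for the values that answer a comparison, 81 moved beyond the counting interval or by over 1.5 times and 95 did not. The same cluster mix, the class without the Gm42418 cluster and the cross-class values were added after seeing the data. The causes were not tested. Only members were counted under the alternatives, so the numbers of members called below have no share of all genes beside them.

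Without cells called doublets the family ratio was 0.9887 in cDC1, 1.032 in cDC2, 0.9404 in activated dendritic cells, 1.002 in pDC, 1.019 in monocytes, 1.411 in neutrophils, 1.004 in B cells and 1.095 in T cells. Members called were 0 in activated dendritic cells, 1 in pDC, 4 in monocytes, 78 in neutrophils and 0 in B cells. The excess over other classes was 3.316 for Rps27l, 1.582 for Rps19 and 3.709 for Rpl31. NK or innate lymphoid cells had too few cells left. With at least 1000 UMIs and at most 5% mitochondrial UMIs the ratio was 1.002 in pDC, 1.1 in macrophages and 1.059 in T cells.

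At resolution 0.5 the ratio was 1.016 in cDC2, 0.931 in activated dendritic cells, 0.9693 in monocytes, 1.199 in neutrophils, 1.022 in B cells, 1.059 in T cells and 1.019 in NK or innate lymphoid cells. Members called were 0 in activated dendritic cells, 0 in macrophages and 5 in monocytes, and the excess was 3.367 for Rps27l, 1.561 for Rps19 and 2.609 for Rpl31. With members among the clustering genes the ratio was 1.021 in cDC2, 1.055 in macrophages (1 member called), 0.9991 in monocytes and 1.074 in T cells. The excess was then 3.011 for Rps27l and 1.438 for Rps19.

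With each cell at equal weight the ratio was 0.9791 in cDC1, 1.007 in cDC2, 0.8934 in activated dendritic cells, 0.9853 in pDC, 1.034 in macrophages, 0.9731 in monocytes, 1.055 in neutrophils, 1.003 in B cells, 1.13 in T cells and 1.069 in NK or innate lymphoid cells. Members called were 3 in activated dendritic cells, 3 in macrophages, 0 in neutrophils, 1 in T cells and 2 in NK or innate lymphoid cells. The excess was 3.38 for Rps27l, 1.718 for Rps19 and 3.344 for Rpl31, and the neutrophil ratios of Rpl7l1 and Rps19bp1 turned to 0.8997 and 0.9265. Without mitochondrial genes and Malat1 in the total, the ratio was 0.9883 in cDC1, 0.9314 in activated dendritic cells, 1.004 in pDC, 1.087 in macrophages, 0.9821 in monocytes and 1.038 in B cells.

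Scaled to the median ratio of other genes, members called were 7 in activated dendritic cells, all lower, 0 in macrophages and 14 in neutrophils. At a fold of 1.5 they were 0 in activated dendritic cells, macrophages, B cells and T cells, and 1 each in monocytes and neutrophils. At 200 UMIs they were 1 in monocytes and 0 in NK or innate lymphoid cells. Without the Gm42418 cluster the cDC1 ratio was 0.9877. With the WT mix of clusters the ratio was 1.019 in cDC2, 0.9621 in activated dendritic cells, 1.008 in pDC, 0.9997 in monocytes, 1.179 in neutrophils and 1.013 in T cells, and the T cell ratio of Rps27l turned to 1.04.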

Other observations

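Genes known as targets of p53 were listed after Rps27l had been seen, so their values are a description. Of 11 such genes, 5 were highest in activated dendritic cells of WT. How many of all genes are highest there was not counted, so 5 of 11 has no background share. In this class Cdkn1a, an inhibitor of the cell cycle, stood at 443 CPM, 6.47 times the median of the other classes. Sesn2 stood at 1.87 times and Ccng1 at 1.14 times. Phlda3 stood at 3.86 times and Perp at 14.2 times, on only 7.655 and 3.49 CPM. Others were not: Bax, which promotes cell death, stood at 0.903, Zmat3 at 0.758, Btg2 at 0.313 and Aen at 0.305 of that median.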
